A study of Mus musculus with 2 samples.

Results

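The cytosolic ribosomal protein genes were taken as the protein-coding rows of the expression table whose symbol is Rpl or Rps with a number, plus Rplp0, Rplp1, Rplp2 and Rpsa. The rule found 81 genes among 55536, of which 76 are core subunit genes (46 of the large, 60S, subunit and 30 of the small, 40S, subunit) and 5 are paralogs whose symbol ends in l (Rpl39l, Rps27l, Rpl36al, Rpl3l and Rpl10l). RNA was sequenced in 1 library from mammary tumor of MMTV-PyVT mice given cyanidin-3-glucoside (C3G), an anthocyanin pigment of berries, and in 1 library from mammary tumor of MMTV-PyVT mice given the vehicle dimethyl sulfoxide (DMSO). The samples are called the C3G tumor and the DMSO tumor here, but how many tumors and mice each library holds is not given in the sources used here. MMTV-PyVT mice carry a transgene in which the mouse mammary tumor virus promoter drives the polyomavirus middle T antigen in mammary epithelium, so tumors arise in either treatment. Dosing began at the stage of ductal hyperplasia and tumors were taken at a preset tumor burden. Nor are age and dose given. The question put by the design is how C3G treatment altered expression in these tumors. With 1 library per treatment, no difference between the tumors could be set against a spread between animals, and no p-value was computed.

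A cytosolic ribosome is built from ribosomal RNA and about equal amounts of each ribosomal protein, so the genes for these proteins are transcribed at high levels in nearly all cells and tend to move together. Their mRNAs start with a run of pyrimidines, the TOP motif, through which the kinase mTOR controls their translation by way of Larp1. A small number of ribosomal proteins have a paralog encoded by another gene, and several of these paralogs are known for expression in testis or muscle rather than in epithelium. Most mammalian ribosomal protein genes also have many processed pseudogenes, which are reverse-transcribed copies of their mRNA inserted elsewhere in the genome.

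The member that differed most between the tumors was Rpl39l, and the printed sequences show how far it can be told apart from its core gene. Rpl39l lies at chr16:10170226-10174911 on the plus strand and Rpl39 at chrX:37082520-37085402 on the minus strand (GRCm38, the build also called mm10). Their coding sequences, 156 bases each, are printed with the 23 differing bases in capitals.
Rpl39l: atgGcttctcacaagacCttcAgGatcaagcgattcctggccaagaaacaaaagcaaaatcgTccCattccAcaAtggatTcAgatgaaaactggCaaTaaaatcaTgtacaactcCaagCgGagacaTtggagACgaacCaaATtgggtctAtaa
Rpl39: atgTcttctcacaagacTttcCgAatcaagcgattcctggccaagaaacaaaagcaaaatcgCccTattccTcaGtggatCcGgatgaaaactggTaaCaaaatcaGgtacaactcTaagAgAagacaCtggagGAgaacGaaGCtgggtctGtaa
The sequences were 85.3% identical, and the longest stretch without a difference was 38 bases. None of the 756 stretches of 50 bases in the Rpl39l mRNA occurred in a transcript of a gene elsewhere. Rps27l, at chr9:66946086-66949516 on the plus strand, and Rps27, at chr3:90212522-90213651 on the minus strand, are shown in the same way because they are the other pair in which both genes were well expressed. They had 61 differences in 255 bases.
Rps27l: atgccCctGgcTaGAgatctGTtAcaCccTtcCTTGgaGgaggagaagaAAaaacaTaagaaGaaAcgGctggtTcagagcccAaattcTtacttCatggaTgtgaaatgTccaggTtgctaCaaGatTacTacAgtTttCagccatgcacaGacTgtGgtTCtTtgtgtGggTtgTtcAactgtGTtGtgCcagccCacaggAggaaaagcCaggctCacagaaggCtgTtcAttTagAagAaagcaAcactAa
Rps27: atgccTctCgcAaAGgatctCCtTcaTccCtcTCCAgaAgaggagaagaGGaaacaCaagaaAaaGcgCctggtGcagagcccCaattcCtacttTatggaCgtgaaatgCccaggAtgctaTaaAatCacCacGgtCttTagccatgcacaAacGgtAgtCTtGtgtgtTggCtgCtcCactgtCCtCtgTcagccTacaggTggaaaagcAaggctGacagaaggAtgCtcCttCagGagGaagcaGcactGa
This pair was 76.1% identical, and its longest stretch without a difference was 11 bases.

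Rpl39l had 6.35 TPM in the C3G tumor (29 reads), against 34.4 TPM in the DMSO tumor (124 reads). TPM is a gene's abundance per length, scaled to the same total in each library. Its fold was 0.185 (95% interval from the read counts 0.119 to 0.278), which is 5.42-fold lower in the C3G tumor. The interval, as every interval given here, covers counting error only. Rpl39l encodes a close relative of Rpl39, a very small protein that lines the exit tunnel through which the new peptide leaves, and in mice it is best known as a component of ribosomes in male germ cells. On the scale of log2((C3G TPM + 1)/(DMSO TPM + 1)), called the log2 ratio from here on, it stood at -2.27, the 91st lowest value among the genes that had at least 5 TPM in 1 of the tumors.

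Rpl39 itself had 879 TPM in the C3G tumor and 741 TPM in the DMSO tumor, a log2 ratio of 0.25. Rpl39l thus made up 0.717% of the summed TPM of the pair in the C3G tumor and 4.44% in the DMSO tumor. The nearest protein-coding genes on chromosome 16 with at least 5 TPM in 1 of the tumors, 4 on each side, had folds between 0.751 and 1.17. Emp2 had 46.3 TPM in the C3G tumor and 40.7 TPM in the DMSO tumor, and 1810013L24Rik had 34.9 TPM in the C3G tumor and 29.8 TPM in the DMSO tumor. The lowest of the 8 was Ciita, with 4.12 TPM in the C3G tumor and 5.49 TPM in the DMSO tumor. Summed over a list of 8 male germ cell markers, expression was 2.60 TPM in the C3G tumor and 2.71 TPM in the DMSO tumor. These sums rest on only 24 reads in the C3G library and 16 reads in the DMSO library. Sycp3 had 9 reads in the C3G library and 14 in the DMSO library, whereas Ddx4 had 13 and 2. Prm1 and Prm2 had 1 read each, in the C3G library, and 4 of the 8 (Dazl, Tnp1, Tnp2 and Acrv1) were at 0 in both. In whole tumors, fewer cells expressing a gene and less of its RNA per cell cannot be told apart.

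The other paralogs did not show a difference of this size. Rps27l, which encodes a relative of Rps27 and is known as a target of p53, had 866 TPM in the C3G tumor (3881 reads) and 724 TPM in the DMSO tumor (2563 reads), a log2 ratio of 0.26. Rps27 had 1411 TPM in the C3G tumor and 1168 TPM in the DMSO tumor, a log2 ratio of 0.27, so that Rps27l was 38.0% of this pair in the C3G tumor and 38.3% in the DMSO tumor. Rps27l was the only paralog ending in l above 100 TPM in either tumor, a level that 74 of the 81 members passed in both. Rpl22l1, which the symbol rule leaves out, had 124 TPM in the C3G tumor and 123 TPM in the DMSO tumor. Of the 50-base stretches of the Rps27 mRNA, 98.7% also occur in other genes, against 22.4% for Rps27l.

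Rpl36al, an intron-poor relative of the X-linked Rpl36a, had 3.36 TPM in the C3G tumor (25 reads) and 4.94 TPM in the DMSO tumor (29 reads). Its fold of 0.680 had an interval of 0.382 to 1.20, so a difference was not detectable at this depth. Rpl36a had 649 TPM in the C3G tumor and 871 TPM in the DMSO tumor, a log2 ratio of -0.42. Rpl3l, the striated muscle paralog of Rpl3, had 6 reads in the C3G tumor and 3 reads in the DMSO tumor (0.665 TPM in the C3G tumor and 0.421 TPM in the DMSO tumor), while Rpl3 had 1088 TPM in the C3G tumor and 1042 TPM in the DMSO tumor. Rpl10l, which takes the place of the X-linked Rpl10 in mouse male meiosis, had no read in either tumor, which allows up to 0.534 TPM in the C3G tumor and 0.676 TPM in the DMSO tumor. Rpl10 had 2158 TPM in the C3G tumor and 1727 TPM in the DMSO tumor. The 5 paralogs together supplied 0.817% of the members' TPM in the C3G tumor and 0.708% in the DMSO tumor, nearly all of it from Rps27l.

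**Figure D1:**
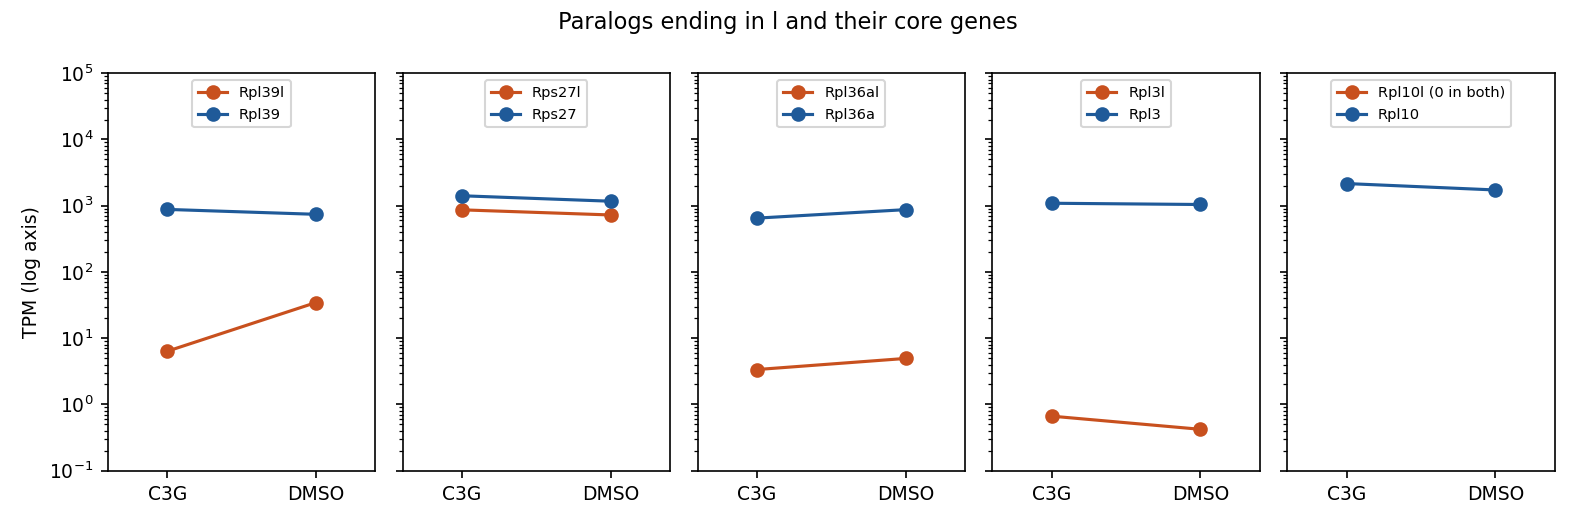
TPM on a log axis of each paralog ending in l (orange) and the core gene of the same number (blue), in the C3G library (left) and the DMSO library (right) of each panel. Rpl39l is at 6.35 TPM in the C3G tumor and 34.4 TPM in the DMSO tumor while Rpl39 is at 879 TPM in the C3G tumor and 741 TPM in the DMSO tumor, and Rpl10l is at 0 in both.

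As a whole the members supplied nearly the same part of the RNA in both tumors. All 81 members supplied 10.7% of TPM in the C3G tumor and 10.8% in the DMSO tumor, or 6.29% (Wilson 95% interval 6.28 to 6.30) of 16081110 reads in the C3G library and 6.53% (6.52 to 6.55) of 12192275 reads in the DMSO library. The median core gene had 1271 TPM in the C3G tumor and 1227 TPM in the DMSO tumor. Core levels ran between 10.1 and 5350 TPM in the C3G tumor and between 9.68 and 4927 TPM in the DMSO tumor. At least 1000 TPM were reached by 50 members in the C3G tumor and 45 in the DMSO tumor.

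The median log2 ratio of the 76 core genes was 0.03, with values between -0.55 and 0.81 and an SD of 0.26 over genes. Of these, 34 were below 0 (44.7%), against 41.1% of the 17468 genes with a mean of at least 1 TPM and 55.1% of the 619 genes with a mean of at least 200 TPM. The 545 genes outside the members with a mean of at least 200 TPM had a median of -0.07 and an SD of 0.52. When all ratios were centred on the median of well-expressed genes (mean of at least 10 TPM), a shift of 0.12, the core median was -0.09 and 54 core genes were below 0. On the deposited scale, 62 of the 76 core genes lay within 1.25-fold in either direction, as did 44.6% of the 17468 genes and 57.8% of the 619 genes named above. The counting error of these folds is small, with a median interval reaching 1.03-fold to either side, and the intervals of 61 of 76 core genes left out a fold of 1, as did 62.9% of all 12780 genes with at least 5 TPM in 1 tumor. Such an interval compares 2 libraries and not the treatments.

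Of the 78 members with at least 5 TPM in 1 tumor (76 core genes and 2 paralogs), 1 was lower by a log2 ratio of at least 1 in size, namely Rpl39l, and 0 were higher. Over all genes 4.30% were lower and 3.10% higher by this rule. At a threshold of 1.5-fold in plain TPM, Rpl39l was lower and Rpl29 higher, where 9.91% of all genes were lower and 13.4% higher. Rps14 lay just under that threshold at 1.499-fold. No core gene under the symbol rule was lower by 1.5-fold on the deposited scale. Of the ribosomal protein genes that the rule leaves out, Fau (0.650-fold) and Rps27rt (0.558-fold) were. After the centring, 3 core genes were lower by that much (Rpl23, Rpl38 and Rpl35). With the pseudogene copies described further on added to their members, 2 were (Rpl24 and Rpl38).

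**Figure D2:**
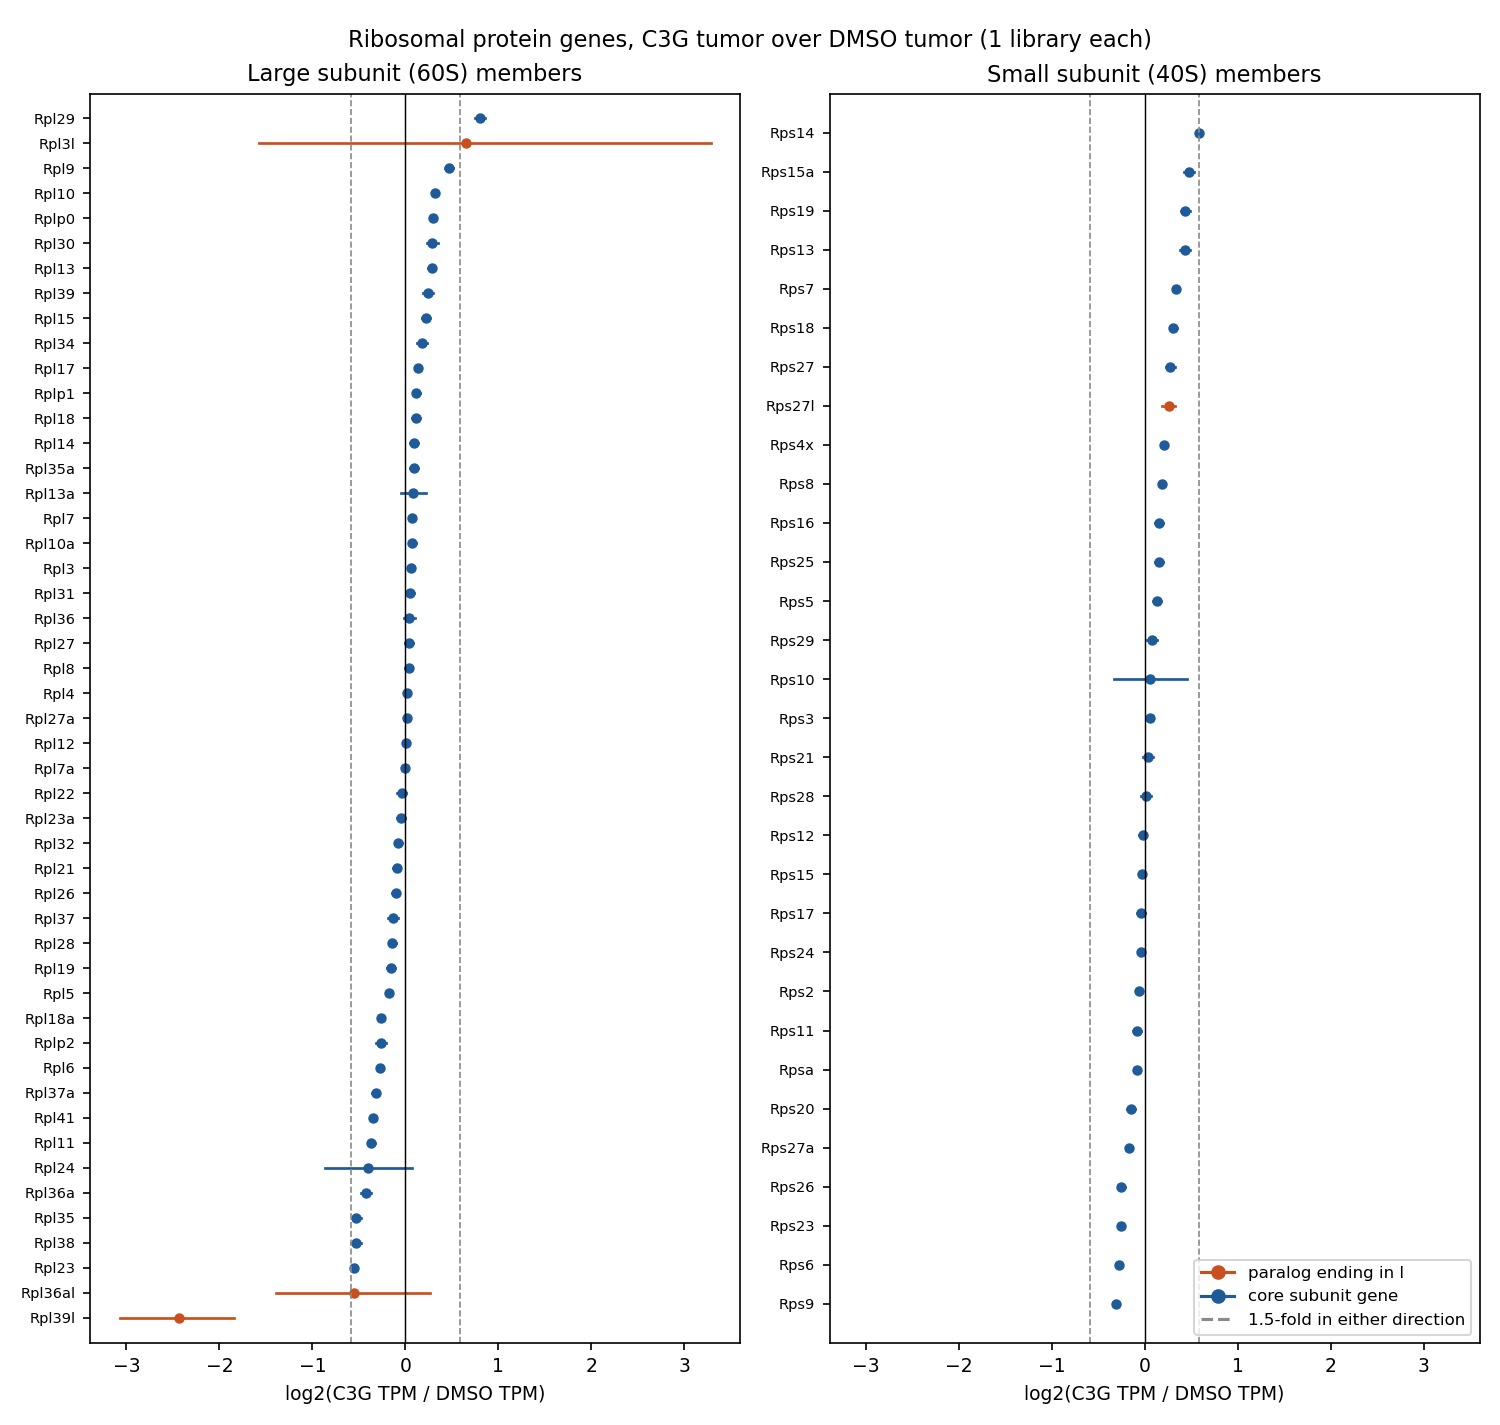
Plain TPM folds of the members, C3G tumor over DMSO tumor, on a log2 axis, with 95% intervals for counting error as bars (hidden by the point where narrow). Large-subunit genes are left and small-subunit genes right, paralogs orange and core genes blue. Rpl10l has no reads and is left out. Rpl39l stands apart at 0.185-fold, and Rpl29 is the only core gene past the dashed 1.5-fold lines.

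The core genes with the highest ratios came from both subunits. Rpl29, a 60S protein also known for binding heparin, had 1460 TPM in the C3G tumor and 833 TPM in the DMSO tumor, a fold of 1.75 (1.69 to 1.82). Rps14, a protein of the 40S platform whose human gene lies in the region lost in 5q- syndrome, had 1579 TPM in the C3G tumor and 1053 TPM in the DMSO tumor. The next genes were closer to the level of the DMSO tumor. Rps15a had 260 TPM in the C3G tumor and 187 TPM in the DMSO tumor, and Rpl9, at the base of the ribosomal stalk, had 717 TPM in the C3G tumor and 518 TPM in the DMSO tumor. Rps19, the gene most often mutated in the human disorder Diamond-Blackfan anemia, had 348 TPM in the C3G tumor and 257 TPM in the DMSO tumor. Rps13 had 518 TPM in the C3G tumor and 383 TPM in the DMSO tumor.

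Under the symbol rule, which leaves out Fau, the 6 core genes with the lowest ratios were all of the large subunit. Rpl23 had 2044 TPM in the C3G tumor and 2994 TPM in the DMSO tumor, and Rpl38, whose loss in mice disturbs the axial skeleton, had 1652 TPM in the C3G tumor and 2389 TPM in the DMSO tumor. Rpl35, at the rim of the exit tunnel, had 1001 TPM in the C3G tumor and 1441 TPM in the DMSO tumor, although 68.3% of its mRNA overlaps exons of Arpc5l and Wdr38. Rpl36a is given above. Rpl24 had 13.8 TPM in the C3G tumor and 18.1 TPM in the DMSO tumor, with a fold interval of 0.550 to 1.05 that takes in 1. Rpl11, which joins Rpl5 and the 5S ribosomal RNA in a particle that can bind Mdm2, had 676 TPM in the C3G tumor and 870 TPM in the DMSO tumor. Over all 46 large-subunit genes, however, the median log2 ratio was 0.02, against 0.04 for the 30 small-subunit genes. The difference of these medians was -0.02, and it was -0.10 once the trend of the ratio with gene length and GC content was removed.

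By role, the stalk proteins, which recruit the elongation factors, had the most abundant member. Rplp1 had 5350 TPM in the C3G tumor and 4927 TPM in the DMSO tumor, and Rplp0, which anchors the stalk, had 2873 TPM in the C3G tumor and 2333 TPM in the DMSO tumor. Rplp2, the partner of Rplp1, went the other way with 582 TPM in the C3G tumor and 697 TPM in the DMSO tumor, and 1 of the 4 stalk genes was below 0. The ratio of Rplp2 to Rplp0 in TPM was 0.202 in the C3G tumor and 0.299 in the DMSO tumor. Both genes of the 5S particle were lower, since Rpl5 had 834 TPM in the C3G tumor and 941 TPM in the DMSO tumor and Rpl11 is given above. Of the 9 genes of the exit tunnel and its rim, 5 were below 0, with a median of -0.04. Rpl17, which lines the tunnel, had 3124 TPM in the C3G tumor and 2839 TPM in the DMSO tumor.

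In the small subunit, 4 of the 13 genes of the head were below 0, with a median of 0.06, and 9 of the other 17, with a median of -0.05. Rps15, a head protein near the decoding site, had 4282 TPM in the C3G tumor and 4374 TPM in the DMSO tumor. Rps6, the substrate of the S6 kinases that act below mTOR, had 2026 TPM in the C3G tumor and 2451 TPM in the DMSO tumor. Rpsa, also known as a laminin receptor, had 1631 TPM in the C3G tumor and 1733 TPM in the DMSO tumor. Rps27a, which is made as a fusion to ubiquitin, had 1675 TPM in the C3G tumor and 1888 TPM in the DMSO tumor. Rpl41, a 60S gene for a very short basic peptide and among the 6 most abundant members, had 2528 TPM in the C3G tumor and 3209 TPM in the DMSO tumor. Of the 20 genes whose human counterparts are linked to Diamond-Blackfan anemia, 8 were below 0 and the median was 0.05.

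The 3 core genes of lowest level were Rps10, Rpl24 and Rpl13a. Rps10 had 10.1 TPM in the C3G tumor and 9.68 TPM in the DMSO tumor, and Rpl13a, known in human monocytes as part of a complex that silences inflammatory mRNAs, had 89.4 TPM in the C3G tumor and 84.1 TPM in the DMSO tumor. All 3 share exons with another annotated gene over most of their mRNA. The overlap covered 564 of 887 bases of Rps10 (Gm15420 and RPS10-NUDT3), 484 of 677 bases of Rpl24 (Gm28037) and 621 of 1047 bases of Rpl13a (Gm45713 and Mir5121). Gm15420, RPS10-NUDT3, Gm28037, Gm45713 and Gm49383, the last of which overlaps Rpl36al, were listed at 0 in both tumors. Over all members, 15 overlapped exons of another gene and 7 did so over more than 50% of the mRNA. Whether reads in such exons were assigned or set aside is not given in the sources used here, so the levels of these genes are uncertain.

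Among 1083 processed pseudogenes that share at least 1 stretch of 50 bases with a member's transcripts and lie elsewhere, the tumors differed more than among the members. These copies summed to 6176 TPM in the C3G tumor and 12631 TPM in the DMSO tumor, 2.05-fold lower. They held 1.49% (1.47 to 1.52) of the reads of members and copies together in the C3G library and 2.90% (2.87 to 2.94) in the DMSO library. Of 343 copies with a mean of at least 1 TPM, 261 were below 0 (76.1%), and their median log2 ratio was -0.60. Of all 17468 genes at that level, 41.1% were below 0. Of the 205 copies with at least 5 TPM in 1 of the tumors, 80 were lower and 5 higher by a log2 ratio of at least 1 in size. By the same rule, 4.30% of all 12780 genes were lower and 3.10% higher. The 731 other processed pseudogenes with a mean of at least 1 TPM had a median of -0.22, with 445 below 0 (60.9%). Of the 261 with at least 5 TPM in 1 of the tumors, 67 were lower and 29 higher by that size.

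Summed per member, the copies were lower for most members, but no such sums were made for other processed pseudogenes. Of 73 members whose copies summed to a mean of at least 1 TPM, 70 had lower summed copies in the C3G tumor, 69 had copies with a lower log2 ratio than the member itself, and 35 had copies at least 2-fold lower. Gm8129, a copy of Rpl38, had 355 TPM in the C3G tumor and 1121 TPM in the DMSO tumor. Gm14303, a copy of Rps29, had 375 TPM in the C3G tumor and 894 TPM in the DMSO tumor, and Gm11942, a copy of Rplp1, had 128 TPM in the C3G tumor and 487 TPM in the DMSO tumor. The lowest ratio among the copies was that of Rps19-ps7, with 10.4 TPM in the C3G tumor and 91.1 TPM in the DMSO tumor, while its parent Rps19 was higher in the C3G tumor. Rpl17-ps10 went the other way, with 237 TPM in the C3G tumor and 199 TPM in the DMSO tumor. These 5 copies were chosen after their values were seen. A read from a copy and a read from its parent mRNA cannot be told apart where the sequences are identical. The median member shared 44.9% of the 50-base stretches of its mRNA with genes elsewhere, and 35 of the 81 shared over 50%.

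**Figure D3:**
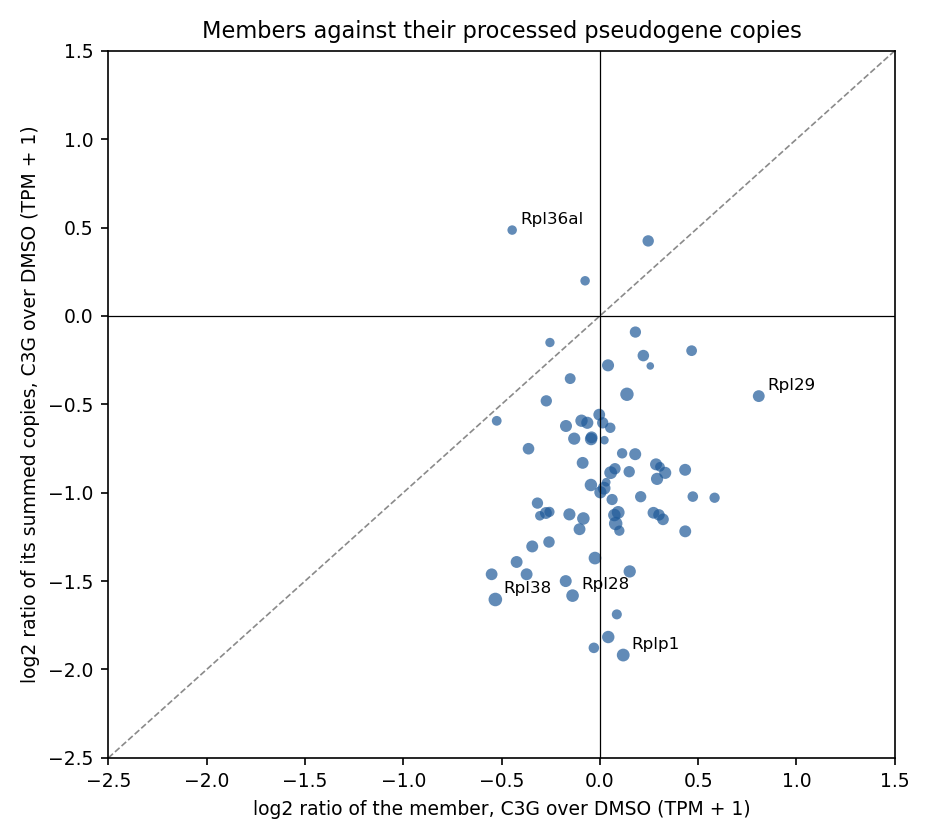
Log2 ratio of each member (x axis) against that of its summed processed pseudogene copies (y axis), C3G over DMSO, for the 73 members whose copies had a mean of at least 1 TPM. Point area grows with the summed level of the copies and the dashed line marks equal ratios. Points lie below the line for 69 members, and the copies of 70 are below 0.

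Related genes outside the rule are given for context, and 0 of the 5 lists that follow held a gene past a log2 ratio of 1 in size. The lists were chosen with earlier results of these data known. The median log2 ratio was -0.02 for 7 ribosomal protein genes with other symbols. Among them, Fau had 1435 TPM in the C3G tumor and 2206 TPM in the DMSO tumor. The log2 ratios of Fau (-0.62) and Rps27rt (-0.84) lay below that of every core gene under the symbol rule. Rack1, a scaffold on the 40S head, had 612 TPM in the C3G tumor and 452 TPM in the DMSO tumor. Rps27rt, a retrogene of Rps27, had 149 TPM in the C3G tumor and 267 TPM in the DMSO tumor, and Rpl7l1 had 98.2 TPM in the C3G tumor and 78.5 TPM in the DMSO tumor. For 18 translation factors and other genes with TOP mRNAs the median was -0.04, with 10 below 0. The elongation factor gene Eef2 had 1988 TPM in the C3G tumor and 1545 TPM in the DMSO tumor, and Eef1d had 89.2 TPM in the C3G tumor and 136 TPM in the DMSO tumor. Hnrnpa1 had 565 TPM in the C3G tumor and 405 TPM in the DMSO tumor, and Eif2s3x, for a subunit of the factor that brings the initiator tRNA, had 79.2 TPM in the C3G tumor and 58.3 TPM in the DMSO tumor.

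The 28 ribosome biogenesis genes had a median of 0.06, with 13 below 0. Polr1b, a subunit of RNA polymerase I, had 22.6 TPM in the C3G tumor and 15.6 TPM in the DMSO tumor, and Rrn3, which recruits that polymerase, had 29.5 TPM in the C3G tumor and 21.7 TPM in the DMSO tumor. Nop10, of the particles that guide pseudouridylation, had 147 TPM in the C3G tumor and 99.4 TPM in the DMSO tumor, and Tsr1, a 40S assembly factor, had 16.2 TPM in the C3G tumor and 11.4 TPM in the DMSO tumor. The 12 regulators of ribosomal protein translation had a median of 0.14, with 3 below 0. Mtor had 13.8 TPM in the C3G tumor and 10.4 TPM in the DMSO tumor, and its partner Rptor had 9.19 TPM in the C3G tumor and 7.02 TPM in the DMSO tumor. The translational repressor Eif4ebp2 had 142 TPM in the C3G tumor and 106 TPM in the DMSO tumor, and the initiation scaffold Eif4g1 had 132 TPM in the C3G tumor and 99.3 TPM in the DMSO tumor. For the 77 measured mitochondrial ribosomal protein genes, which serve a separate ribosome, the median was 0.09, with 30 below 0. The largest ratios in size there belonged to Mrps11, with 20.5 TPM in the C3G tumor and 12.3 TPM in the DMSO tumor, and Mrpl52, with 105 TPM in the C3G tumor and 163 TPM in the DMSO tumor. Mrps33 had 49.0 TPM in the C3G tumor and 75.3 TPM in the DMSO tumor, and Mrps14 had 54.9 TPM in the C3G tumor and 37.2 TPM in the DMSO tumor.

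**Figure D4:**
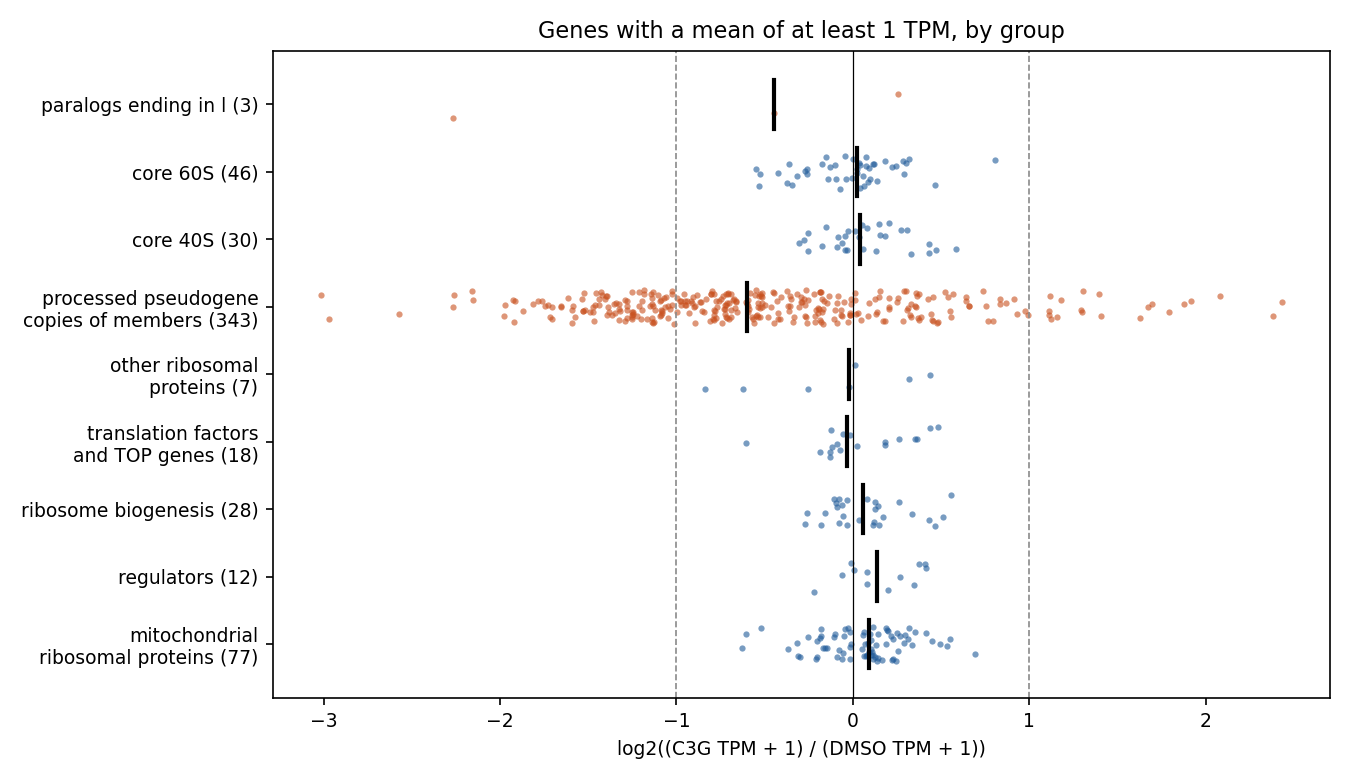
Log2 ratios, C3G over DMSO, of single genes with a mean of at least 1 TPM, by group, with the number of genes in brackets and a black bar at each median. Dashed lines mark a log2 ratio of 1 in either direction. The core genes sit around medians of 0.02 and 0.04, while the copies spread wider around -0.60.

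Properties that the choice of members did not use were also compared. In the gene length classes of 300 to 1000, 1000 to 2000, 2000 to 4000 and 4000 to 8000 bases of exon, the core genes had median log2 ratios of -0.03, -0.05, 0.07 and 0.08, and the other protein-coding genes had -0.03, -0.05, 0.10 and 0.18. Across the 76 core genes, which share the same pair of libraries, Spearman's rho of the log2 ratio was 0.20 with exon length, -0.13 with GC content, -0.22 with mean TPM and 0.10 with the shared part of the mRNA. By chromosome, all 4 core genes on chromosome 10, 6 of 7 on chromosome 11 and 4 of 5 on chromosome 4 were below 0. On chromosomes 9 and 17, 1 of 6 each were, and on chromosomes 3, 12 and 18, 0 of 2 each. These are the extremes among chromosomes with more than 1 core gene, set against 44.7% of all core genes. Chromosomes 6 and 13 hold 1 core gene each, which was below 0. Other protein-coding genes with a mean of at least 10 TPM had medians of 0.15, 0.08, 0.15, 0.12 and 0.09 on chromosomes 10, 11, 4, 9 and 17. An effect of position was not tested. Chromosome 7 holds the most, 14, of which 5 were below 0.

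Start sites in RefSeq (GRCm38.p6) were available for 61 of the 81 members, 56 core genes and 5 paralogs. A start base and next 4 bases that are all C or T, the form a TOP mRNA begins with, was present at 16 of 56 core genes (28.6%), 0 of 5 paralogs and 5.28% of 27025 genes. The check read only the annotated start, so a start placed elsewhere would hide the motif, and its absence was not shown. The RefSeq start of Rpl39, for example, lies inside the gene as given by GENCODE. A gene was counted if any of its entries matched, and the windows printed are of the first entry. The windows of the pairs of Rpl39 and Rps27 are printed because in the pair of Rps27 the core gene has such a start and the paralog does not. Each holds 40 bases before and 20 bases from the start, with the transcribed bases in capitals, on the strand of the gene.
Rpl39l, chr16:10170188-10170247 (+): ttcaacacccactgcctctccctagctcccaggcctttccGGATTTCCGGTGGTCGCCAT
Rpl39, chrX:37085203-37085262 (-): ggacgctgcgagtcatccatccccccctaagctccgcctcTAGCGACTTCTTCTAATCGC
Rps27l, chr9:66946046-66946105 (+): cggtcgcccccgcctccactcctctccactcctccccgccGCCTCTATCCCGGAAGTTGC
Rps27, chr3:90213629-90213688 (-): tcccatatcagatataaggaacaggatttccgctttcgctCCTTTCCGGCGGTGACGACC
In the 300 bases around the start, 250 before and 50 after, CCGGAA on either strand, the core of the motif bound by ETS factors, was found at 31 of 56 core genes (55.4%), at Rpl39l and Rps27l, and at 16.7% of all genes. ATGGCG on either strand, part of the motif of YY1, was found at 16 of 56 core genes (28.6%), at Rpl39l, Rps27l and Rpl10l, and at 10.2% of all genes. TATAAA on either strand was found at 6 of 56 core genes (10.7%), 0 of 5 paralogs and 15.7% of all genes. Different strings of these 3 can share at most 1 end base, and a match only says that these letters are in the window.

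Markers of other cell types differed between the tumors, and the part of these differences in the members' values was not tested. Summed over marker lists, the luminal epithelial markers, which define the labelled tissue, had 6693 TPM in the C3G tumor and 8729 TPM in the DMSO tumor, with 6 of 10 below 0. Most of that difference lies in Krt8, Krt18 and Krt19, which summed to 3435 TPM in the C3G tumor and 5392 TPM in the DMSO tumor, while the other 7 markers summed to 3259 TPM in the C3G tumor and 3337 TPM in the DMSO tumor. All 8 adipocyte markers were higher (1354 TPM in the C3G tumor, 230 TPM in the DMSO tumor), as were all 8 endothelial markers (93.1 TPM in the C3G tumor, 36.0 TPM in the DMSO tumor) and all 7 cell cycle genes (417 TPM in the C3G tumor, 205 TPM in the DMSO tumor). All 8 T cell markers were lower (18.0 TPM in the C3G tumor, 59.9 TPM in the DMSO tumor). B cell markers had 58.1 TPM in the C3G tumor and 119 TPM in the DMSO tumor. Macrophage markers had 1685 TPM in the C3G tumor and 1809 TPM in the DMSO tumor, with 4 of 7 below 0. Fibroblast markers had 1231 TPM in the C3G tumor and 1503 TPM in the DMSO tumor, with 4 of 6 below 0. Skeletal muscle markers, of interest for Rpl3l, had 2.49 TPM in the C3G tumor and 3.60 TPM in the DMSO tumor, with 3 of 8 at 0 in both. These sums rest on only 21 reads in the C3G library and 20 reads in the DMSO library.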

How the data were processed

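Tumor RNA (RNeasy Plus) was made into TruSeq RNA v2 libraries, per the labels' protocols. These libraries hold poly(A)-selected RNA without strand information. The tools named are FastQC, MultiQC, Trimmomatic 0.38 and featureCounts 2.0.0, with build mm10, per the submitters' processing notes. The aligner, and how multi-mapped reads were handled, are not given in the sources used here. The authors deposited TPM for 55536 genes, 1 column per library.

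Symbols, positions and exon lengths came from GENCODE M21. TPM times exon length was a whole multiple of 1 step for 100% of the values above 0 (tolerance 0.01 of a step), and the number of steps was taken as reads. Log2 ratios used a pseudocount of 1 TPM, which understates the change of low genes, and medians used genes with a mean of at least 1 TPM. Fold intervals are exact conditional 95% intervals, share intervals are Wilson 95% intervals, and a count of 0 was taken to allow 3 reads. A gene was called by size at a log2 ratio of at least 1 in size and at least 5 TPM in the higher library. No count model was run, since 1 library per group leaves nothing to test. Shared sequence was counted in stretches of 50 bases of GENCODE transcripts. The genes named are all paralogs with their core genes, the 6 highest and 6 lowest core genes by log2 ratio, the 6 most and 3 least abundant, genes of stated roles, and up to 4 genes per other list. Copies and neighbours named were chosen after their values were seen. The members and lists were chosen with earlier results of these data known. Work was done in Python 3.11.15 with pandas 2.3.3, numpy 2.4.6, scipy 1.17.1 and statsmodels 0.14.6, and the interval and call steps were tested on simulated data.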

Additional observations from a re-analysis of the deposited data

How the results depend on the processing

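Each of 7 results was recomputed under up to 13 other settings, 3 of which were added after the data were seen (copies summed, overlapped members left out, and members under 20% shared). Of 79 recomputed values, 62 stayed within a set limit of the reported one and 17 moved further. The limit was counting error for Rpl39l and 1.5 times for counts. For the share of TPM it was the counting error of the members' share of reads. The counting error of the share of TPM itself was not computed. For the core median and the 60S minus 40S difference it was 0.0392 in log2. That is the median reach to either side of a single core gene's interval. The counting error of a median over genes was not computed. The log2 ratio of Rpl39l lay between -2.42 and -1.80 under every setting run. Centring all ratios on well-expressed genes (mean of at least 10 TPM), a shift of 0.12, gave a core median of -0.0922, 54 core genes below 0 and 5 members past 1.5-fold (Rpl23, Rpl38 and Rpl35 joining Rpl39l as lower). Removing the trend with length and GC content gave 2 members called by size (Rpl29 at 1.00 joining Rpl39l) and a difference of 60S minus 40S medians of -0.10, against -0.02. Adding the copies to each member gave a core median of -0.0799, 47 of 76 core genes below 0 (against 34), a 60S minus 40S difference of -0.0721 and 4 members past 1.5-fold (Rpl24 and Rpl38 joining). Adding only rows named as a member's pseudogene gave a core median of -0.0257. Leaving out overlapped members turned the sign of the 60S minus 40S difference, to 0.0063, which the limit used counts as unchanged. Among members under 20% shared, 2 of 8 core genes were below 0 and 1 of 9 members was past 1.5-fold. The members' share of TPM, C3G minus DMSO, was -0.0820 percentage points as reported. It was -0.199 on TPM rescaled without mitochondrial and the 50 most abundant other genes, -0.103 on TPM relative to the genes outside the members, -0.309 with named pseudogenes, -0.727 with copies, -0.0384 without overlapped members and 0.0331 for members under 20% shared, which hold 0.831% of TPM in the C3G tumor and 0.798% in the DMSO tumor. The causes of these shifts were not tested, beyond the fewer genes or added rows that each setting itself brings.

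No paired analysis was possible because each treatment has 1 library, and for the same reason no replicate was left out. Depth limits the members with few reads, Rpl36al, Rpl3l, Rpl24 and Rps10, whose fold intervals take in 1; Rpl10l has no reads.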

Other observations

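Rpl29 lies at chr9:106429454-106431568, and its neighbours were looked at after its value was seen. Acy1, an aminoacylase gene, had 42.5 TPM in the C3G tumor and 23.0 TPM in the DMSO tumor, 1.85-fold higher (1.61 to 2.12). Abhd14b had 25.1 TPM in the C3G tumor and 13.6 TPM in the DMSO tumor, and Pcbp4, which encodes a poly(C)-binding protein, had 28.6 TPM in the C3G tumor and 16.6 TPM in the DMSO tumor. Abhd14a, which lies among them, had 36.4 TPM in the C3G tumor and 34.0 TPM in the DMSO tumor. Thus 3 of the 4 genes after Rpl29 were higher by a fold close to its own 1.75, whereas the 4 before it were higher by 1.22 to 1.42-fold. Of all 12780 genes with at least 5 TPM in 1 tumor, 13.4% were higher by at least 1.5-fold. Whether position plays a part was not tested.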
